A study of Mus musculus with 7 samples.

Results

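The Trithorax and H3K27 demethylase mRNAs are 10 genes chosen by name: the histone methyltransferase genes Kmt2a, Kmt2b, Kmt2c and Kmt2d, the subunit genes Wdr5, Ash2l and Rbbp5 that these enzymes share, the demethylase genes Kdm6a and Kdm6b, and Ash1l. They are 10 of 55536 genes in the mouse annotation used. The rule uses no measured value. Polycomb repressive complex 2 (PRC2) places methyl groups on lysine 27 of histone H3 through its enzyme Ezh2, a mark of silent developmental genes in embryonic stem cells. Trithorax proteins work on the other side of this balance: the MLL enzymes encoded by the Kmt2 genes methylate lysine 4 of histone H3 at promoters and enhancers, Ash1l methylates lysine 36, and Kdm6a and Kdm6b remove the methyl groups that Ezh2 adds.

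The study sequenced RNA recovered by immunoprecipitation from nuclear lysates of mouse embryonic stem cells that were grown with LIF and left untreated. Wild-type cells of strain 129X(M.castaneusX129) gave 5 libraries with an Ezh2 antibody: the original sample, its technical replicate, a biological replicate, and 2 deeper runs of 2 lanes each on material already sequenced. Ezh2-null cells, whose strain is labelled M.musculus, gave 1 library with the Ezh2 antibody, and wild-type cells of strain 129X(M.castaneusX129) gave 1 with IgG. RNA was copied by template switching, a method in which reverse transcriptase adds a few bases of its own choice and then jumps to an adapter. The values come from a single table of 34072479 reads of 6540936 sequences, whose contents carry no sample name, so that it was read as 1 pool. The name the table was deposited under has letters that could stand for wild type and biological replicate. The table may therefore hold a single wild-type Ezh2 library and no RNA of the Ezh2-null and IgG libraries, which the labels do not settle. No group could be set against another, there are no replicates, and no level below is an enrichment over IgG or over Ezh2-null cells. Intervals are 95% intervals for counting error alone (exact Poisson for counts, Clopper-Pearson for shares), and they are too narrow where reads are PCR copies of the same molecule.

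The labelled cell type was checked with marker genes. Of 10 embryonic stem cell markers, 8 had at least 50 sense reads, led by Lefty2 with 66761 and Tdgf1 with 4569. The pluripotency factor Nanog had 37 and Utf1 had 6. Of 8 fibroblast markers, 7 passed the same minimum, and the 8 had 46 to 5268 sense reads each. Of 8 markers of early lineages 2 passed, and Gata6 had 0 sense reads. Embryonic stem cells are often grown on fibroblast feeders, but the labels name none, and the part of fibroblast RNA in the values below was not tested. In such a pool, fewer cells expressing a gene and less RNA per cell cannot be told apart.

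Sequences at leading start positions are shown first, as examples of what was matched. The sense positions printed hold 6.37% (Kmt2b) to 65.3% (Rbbp5) of their gene's sense reads, so that most levels do not rest on them. A sense read runs complementary to its RNA. Each line gives 30 bases of the RNA strand from GENCODE M21 transcripts (build GRCm38), 5′ to 3′, at a start position that held many of the gene's reads. A start position is the genome base where the matched part of a read begins. Capitals mark the 6 bases that lie opposite the read's own leading 6 bases, which were left out of the matching.
Wdr5, exon 14, coding, chr2:27534785-27534814, plus strand: gacagagaacatcattgcctcagcAGCGTT
Rbbp5, exon 7 and the exon before it, coding, plus strand of chromosome 1: gaaggggagttgcttcctgattaaCACAGC
Kmt2b, intron 30, chr7:30573409-30573438, minus strand: agctcaagtggctgggctttatgcAGCTAT
Kdm6a, intron 18, chrX:18258839-18258868, plus strand: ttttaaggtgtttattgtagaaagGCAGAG
Kmt2d, exon 51 and the exon after it, coding, minus strand of chromosome 15: cgaaaatcctcacacactataaacGGCCCC
Kmt2a, exon 33, coding, chr9:44810677-44810706, minus strand: aaacatcgacagccccctgagtacAACCCT
Ash1l, exon 3, coding, chr3:88981362-88981391, plus strand: caaatggcagattacattagtgcaGCACCA
Kdm6b, exon 11, coding, chr11:69404082-69404111, minus strand: gtggggacaaggagacctttatcgCCTCTG
At the places with most antisense reads the read has the same letters as the RNA strand of the gene, and the capitals stand at its start.
Kmt2c antisense, exon 45, chr5:25293171-25293200, minus strand: ACACCAcctcctatggcttgccagaagatg
Kmt2a antisense, exon 3, chr9:44849090-44849119, minus strand: AGCAGCcccagtatcgataccacctcagat
The capitals of the Kmt2d line begin at the last base of exon 51 and run into exon 52. In the Wdr5, Rbbp5, Kmt2d and Kdm6a lines and in both antisense lines the commonest read at that position matched all 6 leading bases. In Kdm6a this read was only 7 of the 63 at its position and had 1 mismatch in its matched part. In Kmt2b the commonest read, 23 of the 27 at its position, began aAGgctgcataaagcccagccacttgagct, where capitals now mark the 2 leading bases that differ from the transcript. Over all 5760 reads of 40 bases from the 10 genes, the outermost base differed from the transcript in 26.6% and the sixth in 6.06%, and the bases between them lay in between.

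All 10 genes were present in the pool. Each had at least 50 reads in the sense of its RNA, a level reached by 29.1% of 21930 nuclear protein-coding genes. This minimum takes no account of length. Median exonic length was 9282 bases in the 10 genes, against 5774 in the protein-coding genes that reached it. Together the 10 genes held 4982 sense reads at 613 start positions, 0.085% of the 5863880 nuclear sense reads. The shared subunits Wdr5, Ash2l and Rbbp5 gave 2942 of these reads (59.1%), the 4 Kmt2 genes gave 1314 (26.4%), the 2 demethylases gave 508 (10.2%) and Ash1l gave 218.

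Per length, Wdr5 stood far above the other members. Its level was 17.3 RPKM (interval 16.5 to 18.1), which is the number of sense reads for each kb of merged exons in 1000000 searched reads, and lay above 99% of protein-coding genes. Ash2l came next at 2.87 RPKM (2.67 to 3.07). Kdm6a at 1.6 (1.45 to 1.76), Kmt2b at 1.4 (1.27 to 1.54) and Rbbp5 at 1.4 (1.2 to 1.62) followed, and their neighbouring intervals overlapped. Most reads of Kdm6a and Kmt2b lay in introns, and the order by coding sequence alone, given below, was different. Kmt2a stood at 0.626 RPKM (0.56 to 0.697), clear of its neighbours on either side. Kmt2d at 0.477, Ash1l at 0.466, Kmt2c at 0.408 and Kdm6b at 0.392 RPKM formed the low end, where each overlapped with the next. The median of the 10 genes was 1.01 RPKM, against 0.0856 RPKM over all protein-coding genes and 0.975 over those with at least 50 sense reads. The members' median depended on the counting. It was 0.55 RPKM without stretches like those of other genes, 0.511 from 36-base reads alone and 1.58 with reads that match several genes also counted, and the median of other genes was not recomputed under these settings.

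**Figure D1:**
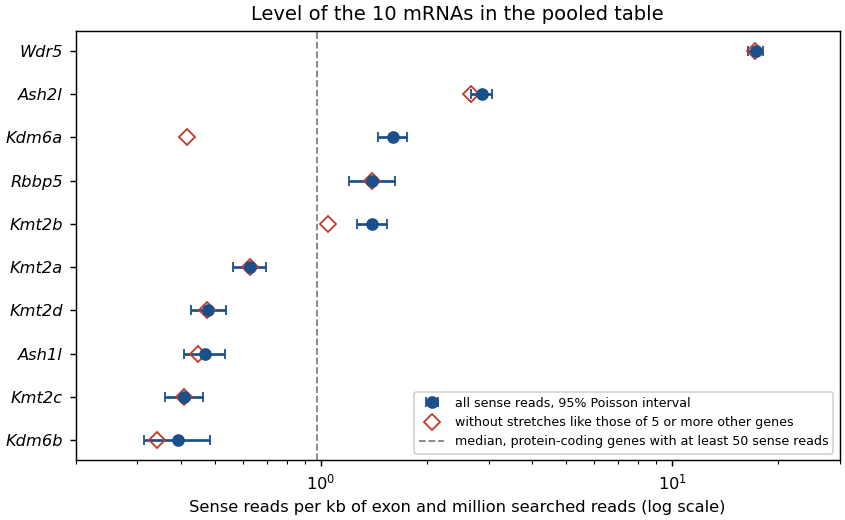
Level of each gene on a log scale, in RPKM, with 95% Poisson intervals for all sense reads (filled circles) and without stretches like those of 5 or more other genes (open diamonds). Wdr5 lies at 17.3 and Kdm6b at 0.392, and the open diamond of Kdm6a lies at 0.416, against 1.6 for all its reads.

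The levels of Kdm6a and, to a lesser degree, Kmt2b rested in part on intronic sequence that resembles other genes. The plot of levels gives each value a second time without such stretches, meaning windows of 100 bases that align over at least 60 bases, at 75% identity or more, with 5 or more other genes. Kdm6a then kept 110 of 422 reads and 0.416 RPKM, and Kmt2b kept 318 of 424 reads and 1.05 RPKM. Wdr5 kept 1951 of 1958 reads, and Kmt2a, Kmt2c and Rbbp5 kept all of theirs. In coding sequence alone, Kdm6a, Kmt2b and Kmt2c were lowest, with 13.6 sense reads per kb each. Kmt2d had 14.5, Kdm6b 15, Ash1l 22.8, Kmt2a 25, Rbbp5 98.5, Ash2l 315 and Wdr5 1733. The ranks of Kdm6a and Kmt2b above Kmt2a in RPKM therefore rest on their intronic reads.

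Kmt2a, the founding MLL gene, whose protein maintains Hox gene expression and is cut and fused to other proteins in human leukaemias, had 329 sense reads (294 to 367) on chromosome 9, 44803355 to 44881296, minus strand. They started at 78 positions, of which the highest held 31 reads (9.42%). Most of its reads lay in 2 long exons. Exon 3, of 2651 bases, held 135 reads at 30 positions and exon 27, of 4237 bases, held 118 reads at 29 positions, so that these exons had 41% and 35.9% of the reads on 16.1% and 25.7% of the transcript. The longest exon, exon 36 of 4823 bases, held 29.3% of the transcript but 29 reads (8.81%), and exon 33, of 104 bases, held 33 reads (10%). Only 8 of 36 exons had a read. Coding sequence held 91.2% of the reads (87.6 to 94), the 3′ untranslated region 8.81%, and intron-retaining isoforms none.

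No sense read of Kmt2a crossed an exon junction within its matched part. The longest coding transcript has 35 junctions, and 7.03% of all windows of 34 bases along it cross one. With 0 of 329 reads, the Clopper-Pearson interval reaches 1.11%, and the limit of 3 counts for a count of 0 is 0.912%. Ash1l behaved in the same way, with 0 of 216 sense reads on its longest coding transcript (interval up to 1.69%, limit of 3 counts 1.39%), against 7.67% of its windows. By start positions the counts were 0 of 78 in Kmt2a and 0 of 54 in Ash1l. The limits by reads are therefore too low if reads at the same position are copies. In the antisense orientation, all 19 reads of the largest Ash1l stretch, in exon 6, crossed a junction. The other 8 genes had junction reads, and over all 10 genes 22.4% of reads on the longest coding transcript crossed a junction (21.1 to 23.7), against 22.9% in protein-coding genes with at least 50 sense reads. By start positions the shares were 15% and 14.7%. Of the members' 920 junction reads, Wdr5 gave 564 and Rbbp5 gave 126, so that the pooled share by reads leans on these genes. Among the genes with junction reads, the share ran from 7.87% in Kdm6a to 29% in Wdr5 and 72.8% in Rbbp5. Of the 4 members with at least 200 sense reads on a transcript of 20 or more junctions (Kmt2a, Kmt2c, Kmt2d and Ash1l), 2 had no sense read across a junction. Of 598 such genes 2.01% had none. This rule was chosen after the values were seen. Reads of a long exon are the same in spliced RNA, unspliced RNA and genomic DNA, and which of these they came from was not tested.

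Kmt2b, which encodes the MLL enzyme that methylates many promoters of developmental genes, lies on chromosome 7, 30568858 to 30588726, minus strand, and had 424 sense reads (385 to 466) at 65 positions. Most of them came from intron 30. There 298 reads started at 22 positions between 30573295 and 30573651, on the retained-intron isoform ENSMUST00000128456.1. They fell into neighbouring stretches, meaning start positions within 10 bases of each other, of 94, 90, 77 and 32 reads in the 4 largest. In these stretches 90.6% to 97.4% of reads matched without a mismatch. The stretch of 94 reads resembled 8 other genes and the other 3 resembled none. Coding sequence held 111 reads (26.2%; 22.1 to 30.6), although it makes up 85.1% of the annotated exonic length. Exon 3, the longest, held 47.2% of the reads on the longest coding transcript. The printed Kmt2b sequence lies in this intron, in the stretch of 90 reads.

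Kmt2c and Kmt2d encode the large MLL enzymes that place monomethyl marks at enhancers. Kmt2c, on chromosome 5, 25271798 to 25498783, minus strand, had 261 sense reads (230 to 295), spread over 45 stretches at 47 positions. Exon 14 held 52 of them and 25 of 59 exons had at least 1. Its highest sense position, in intron 9, held 36 reads of a single sequence with a mismatch to the transcript. Such reads can be copies of the same molecule, and without them Kmt2c has no sense read on an isoform that lacks coding sequence. Kmt2d, on chromosome 15, 98831669 to 98871204, minus strand, had 300 sense reads (267 to 336) at 66 positions. They gathered near the end of the transcript, where the last 20% of its length held 79.3% of the reads at 45 positions. Exon 51 held 70 reads, exon 52 held 60 and the terminal exon 55 held 55. Exons 51 and 52 are short and make up 0.661% and 1.44% of the transcript. Human KMT2D and KDM6A are the genes mutated in Kabuki syndrome.

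**Figure D2:**
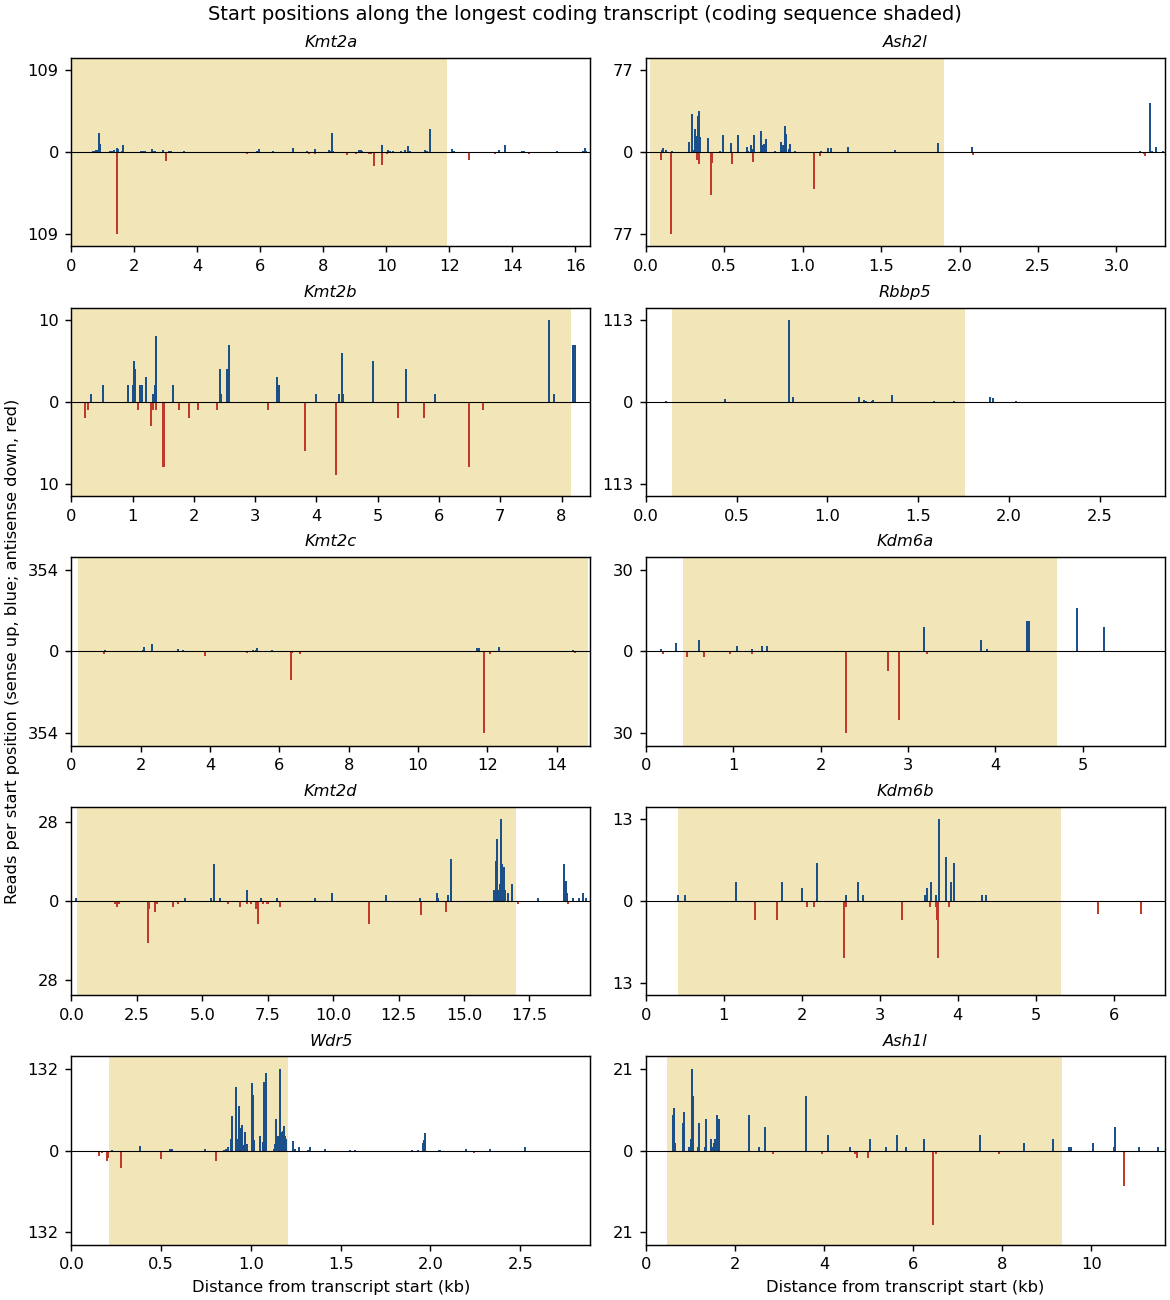
Reads per start position along the longest coding transcript of each gene, with distance from the transcript start in kb, sense reads upward in blue, antisense reads downward in red and coding sequence shaded. Each panel has its own scale, set by its highest position, which is 354 antisense reads in Kmt2c and 132 sense reads in Wdr5; reads in introns are not drawn.

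Wdr5 encodes the WD-repeat subunit that docks the MLL enzymes and the histone H3 tail. It lies on chromosome 2, 27515157 to 27536535, plus strand, and had the most reads of the 10 genes, 1958 (1872 to 2047) at 105 positions. As the plot of start positions shows, they sat in a narrow block at the 3′ end of the coding sequence. The second 20% of the transcript held 83.4% of the reads at 66 positions. The largest stretch was 479 reads in exon 14, at 19 positions from 27534799 to 27534839, and it was followed by 316 reads in exon 11, 301 in exon 12 and 268 in exon 13. Of the 316 reads in exon 11, an exon of 34 bases, 310 crossed a junction. Coding sequence held 93% of the reads (91.7 to 94) on 29.2% of the exonic length, a density of 1733 reads per kb, against 75 per kb in its 3′ untranslated region. The highest position held 132 reads, 6.74% of the total, so that the count of Wdr5 did not rest on a single position.

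Ash2l, whose protein activates the MLL enzymes together with Rbbp5, lies on chromosome 8, 25815996 to 25847694, minus strand. It had 811 reads (756 to 869) at 103 positions. Exon 3, of 146 bases, held 311 of them, of which 242 lay in a single stretch of 20 start positions. The first 40% of the transcript held most of the reads on it: 60.5% in the first 20% and 28.3% in the next. Isoforms without coding sequence held 152 reads (18.7%), 117 of them on the retained-intron isoform ENSMUST00000211188.1, which covers parts of introns 6, 7 and 8. Near the end of its 3′ untranslated region a stretch of 47 reads resembled 2240 other genes. A further 1522 sense reads matched Ash2l and other genes equally well and are not in its count.

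Rbbp5, the subunit that joins Ash2l to the catalytic part, lies on chromosome 1, 132477365 to 132505659, plus strand, and had the second smallest count, 173 reads (148 to 201). A single position, 132493829 in exon 7, held 113 of them (65.3%). It was the only member with over 50% of its sense reads at 1 position, which 9.03% of 6956 genes with at least 50 sense reads had. The stretch around it had 123 reads of 9 sequences, and all of them crossed the junction into the exon before. The other 50 reads were spread over 12 stretches. The printed Rbbp5 sequence is this spliced junction. In Rbbp5, 86% of 34-base windows of the transcript can be given to this gene alone, the lowest share of the 10. The median share of the highest position was 9.65% over the 10 genes, against 21.6% over protein-coding genes with at least 50 sense reads. Median exonic length was 9282 bases in the 10 genes and 5774 in the others, and genes of like length and read count were not compared.

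Kdm6a, an X-linked demethylase that is also a subunit of the Kmt2c and Kmt2d complexes, spans 18162575 to 18279936 of the X chromosome on the plus strand and had 422 sense reads (383 to 464) at 51 positions. Its count was mostly intron 18. On the retained-intron isoform ENSMUST00000130978.1 there were 331 reads at 31 positions, from 18258423 to 18258925. The largest stretch held 233 reads of 105 sequences, resembled 13 other genes, and had only 30% of reads without a mismatch (24.2 to 36.4). The next, of 75 reads, resembled 8 other genes and had 54.7% (42.7 to 66.2). Over all sense reads of the 10 genes 85.7% had no mismatch, and over other nuclear genes 87.1%. Whether the intron 18 reads came from Kdm6a or from related copies elsewhere in the genome was not tested. Coding sequence held 60 reads (14.2%; 11 to 17.9), of which the stretch in exon 27 had 23.

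Kdm6b, the demethylase induced by inflammatory signals in macrophages, lies on chromosome 11, 69398508 to 69413675, minus strand, and had the fewest reads, 86 (68.8 to 106) at 24 positions. Exon 11, of 2168 bases, held 52 of the 75 reads on the longest coding transcript. Of its other reads 11 lay in intron 13 at a single position, all with a mismatch, in sequence like that of 10 other genes. Coding sequence held 86% of the reads (76.9 to 92.6) and its 3′ untranslated region, of 1321 bases, held none.

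Ash1l, whose protein methylates lysine 36 of histone H3 and was found in flies as a trithorax group gene, lies on chromosome 3, 88950622 to 89079375, plus strand. It had 218 reads (190 to 249) at 56 positions. The very long exon 3, of 4558 bases, held 141 reads at 33 positions, 65.3% of reads on 39.1% of the transcript. Exon 2 held a further 43. Coding sequence held 92.7% (88.4 to 95.7). A further 718 sense reads matched Ash1l and other genes equally well and were not counted for it.

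Over the 10 genes together, coding sequence held 75.5% of sense reads (74.3 to 76.7), against 79.1% in other nuclear protein-coding genes. By start positions, each counted once, the shares were 73.1% and 63.7%. Wdr5, with 93% of its reads in coding sequence, gave 1820 of the 3761 coding reads and 1958 of the 4982 sense reads. The members' pooled shares by reads therefore lean on this gene, and they were not counted without it. The 3′ untranslated region held 7.25% of the members' reads, against 14.7% in other genes, and sequence found only in isoforms without coding sequence held 17%, against 4.83%. Of those 845 reads, 299 were in Kmt2b and 333 in Kdm6a. These were the members with over 50% of sense reads on such isoforms, as had 8.1% of 6380 protein-coding genes with at least 50 sense reads. Per gene, the median coding share was 83.7% in the 10 genes, against 63% in those 6380. The annotated exonic length of the 10 genes is 65.9% coding. The coding part of the length was not counted for other genes, so the shares are not set against gene structure there. Single members departed from their own lengths in both directions. In Kdm6a coding sequence had 14.2% of the reads on 52.8% of the length, in Ash2l 72.6% on 20.8%, and in Kmt2d 81.3% on 84.4%.

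**Figure D3:**
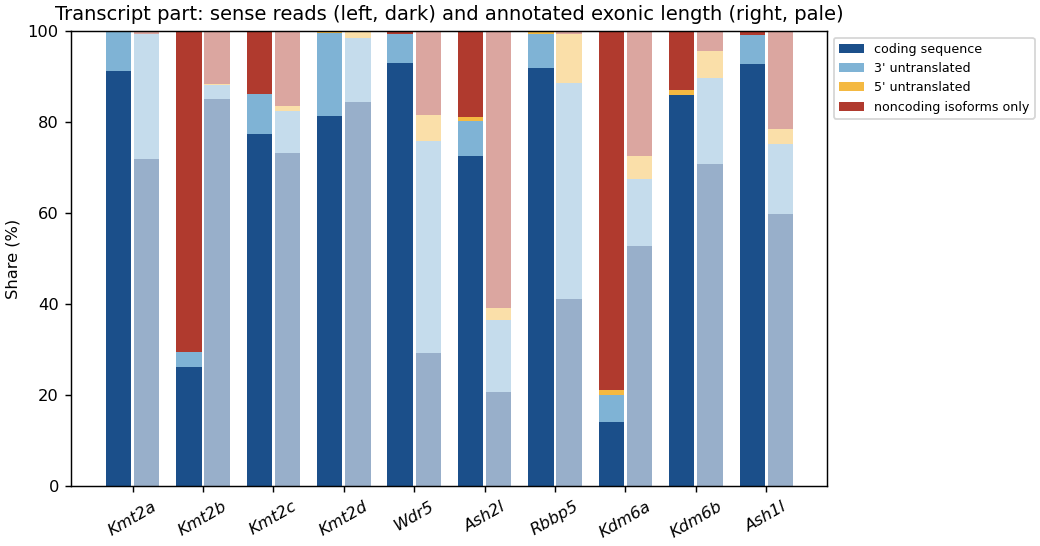
Share of sense reads (dark, left bar) and of annotated exonic length (pale, right bar) in coding sequence, untranslated regions and sequence of isoforms without coding sequence, for each gene, in percent. Coding sequence has 93% of the reads on 29.2% of the length in Wdr5, while isoforms without coding sequence hold 70.5% of the reads of Kmt2b and 78.9% of those of Kdm6a.

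Antisense reads, from RNA or cDNA of the strand opposite to the gene, numbered 1792 at 213 start positions. They were 26.5% of the members' reads (25.4 to 27.5), against 13.7% in other nuclear genes. Counted by start positions the shares were 25.8% (22.8 to 28.9) and 25.1%. The 4 Kmt2 genes gave 1144 of these reads, Wdr5, Ash2l and Rbbp5 gave 447, the demethylases gave 145 and Ash1l gave 56. Some antisense reads crossed exon junctions of the gene itself. All 33 reads of the largest stretch in Wdr5, all 19 in Ash1l and all 40 of an exon 3 stretch in Ash2l did so. So did 15 of 16 reads of a further Wdr5 stretch in exon 9, and all 9 of a Kmt2b stretch in exon 16. Outside Wdr5 and Ash1l, the largest antisense stretch of each member had no junction read. Only the 4 largest antisense stretches of a gene, at most, were looked at. Whether antisense reads came from opposite-strand RNA or from cDNA was not tested.

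Kmt2c was the only member with more antisense than sense reads, 689 antisense (639 to 742) and 261 sense. Its antisense share was 72.5% (69.6 to 75.3), an interval above 50%, as in 15.7% of 8911 nuclear genes with at least 50 reads. By start positions the share was 42% (31.1 to 53.5), with 34 antisense and 47 sense positions. Its antisense reads came mainly from 2 places. In exon 45, 459 reads of 172 sequences started between 25293175 and 25293195, with 354 of them at 25293194, the place printed above. In exon 36, 126 reads of 15 sequences started at 2 positions, 25314961 to 25314963. Only 59.3% of the exon 45 reads had no mismatch (54.6 to 63.8), against 92.9% of those in exon 36.

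Kmt2a had nearly equal strands, 302 antisense and 329 sense reads (47.9% antisense; 43.9 to 51.8). Of the antisense reads 203 came from 1 stretch in exon 3, at 44849110 to 44849114, of 41 sequences, and 93.1% of them had no mismatch. By start positions its antisense share was 24.3%. Ash2l had 326 antisense reads, of which 102 lay in exon 1, and an antisense share of 28.7% (26.1 to 31.4). Kdm6b at 32.8%, Kmt2d at 22.7%, Ash1l at 20.4% and Kdm6a at 19.6% lay between. Kmt2b at 13.3%, Wdr5 at 5.73% and Rbbp5 at 1.14%, with 2 antisense reads, were lowest. None of the largest antisense stretches lay within an annotated gene on the opposite strand. The counting sets this in part, since a read that matches an exon of such a gene equally well counts as sense for that gene. Starts in both orientations were held by 4 genome positions.

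**Figure D4:**
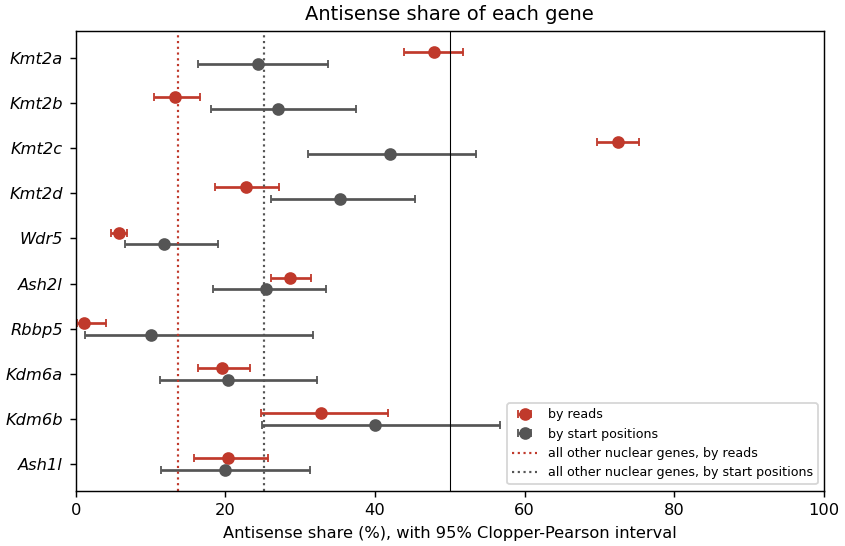
Antisense share of each gene in percent, by reads (red) and by start positions (grey), with 95% Clopper-Pearson intervals and dotted lines for all other nuclear genes, 13.7% by reads and 25.1% by start positions. Kmt2c at 72.5% by reads is the only gene whose interval lies above 50%, and by start positions its interval, 31.1 to 53.5, includes 50%.

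The pool held reads of 36 and of 40 bases, and the labels do not say which libraries gave which. Of searched reads 19.8% had 36 bases and 78.6% had 40. Wdr5 had 70 sense reads per 1000000 searched reads of 40 bases and 34.1 per 1000000 of 36 bases, a ratio of 2.05, and other nuclear genes together had a ratio of 1.96. Kmt2b at 2.05, Ash1l at 2.13, Kmt2c at 1.91 and Ash2l at 1.73 lay near it. Rbbp5 lay above at 3.69, on 11 reads of 36 bases. Kmt2a at 1.43, Kmt2d at 1.03, Kdm6a at 0.893 and Kdm6b at 0.641 lay below. Of 292 start positions with 36-base reads, 149 (51%) also had 40-base reads.

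The excess of antisense reads in Kmt2c was seen in both lengths, with 73.7% of 40-base reads and 70.4% of 36-base reads. Kmt2a had 47.6% and 47.3%. In Kmt2d the lengths differed, with 14.4% antisense at 40 bases (10.5 to 19.1) and 45.3% at 36 (35.6 to 55.2). Kmt2b had 10.1% (7.37 to 13.4) and 33.3% (22.4 to 45.7). Other nuclear genes had 13.2% and 17%. The labels do not tell what the 2 lengths stand for, and the part of the libraries in these differences was not tested.

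Of further genes, 13 tied to the MLL and Set1 complexes, not all of them subunits, were listed, and 8 had at least 50 sense reads. The highest were Bod1l with 3941 reads, Psip1 with 1656, Hcfc1 with 1638 and Wdr82, a subunit of the Set1 complexes, with 544. The Set1 enzymes themselves were low, Setd1a with 30 reads and Setd1b with 37, below each of the 4 Kmt2 genes in RPKM as well (0.14 and 0.0972). Dpy30, which completes the core of Wdr5, Ash2l and Rbbp5, had 34 reads but 0.941 RPKM on its short mRNA, and Pagr1a had 0. The list's median was 0.43 RPKM. Its reads together were 6.17% antisense, a share set by the genes with most reads, such as Bod1l at 2.64% and Hcfc1 at 6.45%. The other 8 genes with a read had 15.4% to 38.9%, within the range of 1.14% to 72.5% of the members.

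All 6 demethylases of H3 lysine 4, which undo the marks of the MLL enzymes, had at least 50 sense reads. Kdm1a had 1256, Kdm5b 716, Kdm5a 576 and Kdm5c 314. The antisense share was 47.9% in Kmt2a and 49.5% in Kdm5c, which had 308 antisense reads. Uty, the Y-linked relative of Kdm6a, had 11 sense reads at 5 positions. Kdm5d, another of the 6 demethylases and also Y-linked, had 140 at 25 positions. Among genes tied to lysine 36, all 5 passed the minimum, with Setd2 at 751, Nsd1 at 631, Nsd2 at 533 and Nsd3 at 255. Their median was 1.01 RPKM, and that of the 10 members was also 1.01 as reported but 0.511 to 1.58 under the other settings.

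The mRNAs of PRC2, the opposing complex, were set beside the members on the same scale. The median of the 10 members was 1.01 RPKM and that of 11 PRC2 genes 4.83 RPKM, and no test was made of this difference. Ezh2 had 12795 sense reads and 60.8 RPKM, Jarid2 1478 reads, Suz12 1291 and Rbbp7 1234, and 10 of the 11 had at least 50. Wdr5 at 17.3 RPKM lay above every PRC2 gene but Ezh2. Antisense reads were 26.5% of all reads in the members and 6.89% in the PRC2 genes, where Ezh2 alone, at 7.78%, gave most reads. In the members, 1 stretch of Kmt2c gave 459 antisense reads and 1 of Kmt2a gave 203. By start positions the members' share was 25.8%, near the 25.1% of other nuclear genes, and that of PRC2 was not counted. Single genes had 1.14% to 72.5% in the members and 0.521% to 17.2% in PRC2.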

How the data were processed

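The deposited table gives the authors' read count for each distinct sequence, not scaled to depth. How the authors trimmed or filtered reads, and their aligner, are not given in the sources used here. The submitters' processing notes name mm9, but the table has no coordinates. Reads lost 6 leading bases, kept at least 20, and were matched to GENCODE M21 (GRCm38) transcripts with bwa 0.7.19 (up to 2 mismatches, no gaps, up to 1000 placements). In all 31529044 reads of 26 bases or more were searched. A read counted where its best placements lay on 1 gene, with sense placed before antisense. Coding sequence of any isoform took a read before untranslated sequence, and untranslated before isoforms without coding sequence. Stretches like those of other genes were found with blastn 2.17.0, and intervals come from scipy 1.17.1. Introns outside annotated isoforms were not searched. Matching was tested on simulated reads. Windows of 34 bases are the matched part of a 40-base read. The members, pathway lists and markers were chosen with earlier results of these data known. All members are named, and the 4 genes with most sense reads of each pathway list. Nanog, Utf1, the fibroblast and lineage markers, Setd1a, Setd1b, Dpy30, Pagr1a, Kdm5d and Uty were named after their values were seen.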

Additional observations from a re-analysis of the deposited data

How the results depend on the processing

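No paired analysis was possible because nothing inside the table names a sample, and no library could be left out. The table's deposited name leaves it possible that it holds 1 wild-type library. The count of 10 members with at least 50 sense reads became 9 by distinct sequences (without Rbbp5) and 7 by start positions (without Kmt2c, Rbbp5 and Kdm6b). It was 8 with a minimum of 200 sense reads and 4 from 36-base reads alone (Kmt2d, Wdr5, Ash2l and Kdm6a). Under the other settings it stayed at 10. The median level of 1.01 RPKM became 1.26 with each sequence counted once, 0.677 without mismatches, 1.58 with reads of several genes also counted, 0.511 from 36-base reads, 0.725 with the whole read matched and 0.55 without stretches like other genes. The antisense share of 26.5% became 30.3% by distinct sequences, 25.1% without mismatches, 29.5% with reads of several genes, 31.7% from 36-base reads, 31.2% by stretches and 28.1% without stretches like other genes. Members with an antisense share above 50%, 1 as reported, were 0 by start positions and 2 with reads of several genes (Kmt2c and Kdm6b). The coding share of 75.5% became 72% by distinct sequences, 73.1% by start positions, 79.6% without mismatches, 50.2% with reads of several genes, 80.4% with the whole read matched, 91.6% from the longest coding transcript alone, 73.8% by stretches and 83.8% without stretches like other genes. Members with over 50% of reads at 1 position, 1 as reported, were 0 by distinct sequences, 0 from 36-base reads and 2 by stretches (Rbbp5 and Kdm6a). The cause of these shifts was not tested, except that fewer reads are counted from 36-base reads alone. The settings by stretches and without stretches like other genes were chosen after seeing the data. Counting each start position once leaves no reads per length and no reads per position, and was not run for the level or the share of the highest position.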
